A study of Homo sapiens with 9 samples.

Results

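The genes described here encode coagulation and complement factors, the plasma proteins that clot blood and mark microbes for destruction, with their receptors and inhibitors. They were chosen by gene symbol from a list of 47 genes, and 43 of them were present in both count tables, among the 12854 genes that the tables share. *F9*, *KLKB1*, *TFPI2* and *HRG* were not analysed here. The cells were HepG2, an established line from a human liver cancer, grown in low-glucose DMEM. Each group was a stable line carrying a lentiviral Tet-pLKO-Puro vector, which drives a short hairpin RNA upon doxycycline. The control line (sh-Con) expressed a control hairpin, and the sh1-*TUG1* and sh2-*TUG1* lines each expressed a different hairpin against the long non-coding RNA *TUG1*. RNA-seq was done in 3 libraries per line, which the study calls technical replicates, so p-values here measure only the spread between these libraries. Each hairpin was represented by 1 line, and a hairpin cannot be told apart from its line. *TUG1* itself was not analysed here, and the labels were not checked against it.

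The liver makes most of the clotting and complement proteins in plasma. Clotting runs as a chain of proteases that ends in thrombin and fibrin, and serpins, protein C and its cofactors hold that chain in check. Complement is a related protease chain that starts from antibodies, from sugar-binding lectins or spontaneously, converges on C3, and ends in a pore assembled from C5 to C9. HepG2 cells are a common model of hepatocyte secretion and express many of these genes.

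The libraries held 33051617 to 39393293 counts over the genes of a table. The hepatocyte markers *ALB*, *AFP*, *TTR*, *APOA1*, *APOB*, *TF* and *HNF4A* were present. Their summed level was 32950 to 34670 CPM (read counts scaled to the library size) in sh-Con, 37950 to 39440 in sh1-*TUG1* and 43910 to 45410 in sh2-*TUG1*. The sum followed *ALB*, with means of 13510, 18460 and 25390 CPM, and the markers did not move alike. By the test described below, *ALB*, *AFP*, *TTR* and *APOB* rose in sh1-*TUG1* and *TF* fell, while in sh2-*TUG1* *ALB* and *AFP* rose and *TTR*, *APOA1*, *TF* and *HNF4A* fell. *TF* had log2 fold changes of −0.65 and −0.50 in the 2 lines, and *TTR* of 0.47 and −0.82 (adjusted p = 1.63e-06, 1.07e-05, 0.000744 and 0.000363 by edgeR). Of the endothelial, stromal and immune markers, 2 of 4, 2 of 5 and 2 of 5 were analysed. Their summed levels in sh-Con, sh1-*TUG1* and sh2-*TUG1* were 8.75 to 9.46, 11.3 to 12.2 and 12.2 to 13.6 CPM for the endothelial markers. The stromal markers summed to 56.2 to 60.6, 75.4 to 80.7 and 87.9 to 93.4 CPM. The immune markers, *LYZ* and *CD68*, summed to 926 to 1138, 1155 to 1243 and 713 to 778 CPM. Most of that sum was *LYZ*, and *CD68* fell in both lines, from a mean of 63.7 CPM to 35.2 and 20.8. The part of these markers in the results was not tested, and the other markers, *CDH5*, *TEK*, *COL1A1*, *COL1A2*, *COL3A1*, *PTPRC*, *CD14* and *CD3E*, were not analysed here.

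The coagulation and complement genes rose more often than they fell in sh1-*TUG1* and fell more often than they rose in sh2-*TUG1*. Together they took 1.01% to 1.10% of all counts in the sh-Con libraries, 1.12% to 1.21% in sh1-*TUG1* and 0.853% to 0.973% in sh2-*TUG1*. Changes were tested with edgeR's quasi-likelihood test, with p-values adjusted over all genes by the Benjamini–Hochberg method, and a gene passed at an adjusted p under 0.05. In sh1-*TUG1*, 13 of the 43 genes rose, 4 fell and 26 did not pass, beside 12.5% of all genes that rose and 12.3% that fell. In sh2-*TUG1*, 2 rose, 19 fell and 22 did not pass, beside 21.6% of all genes that rose and 21.9% that fell. The members had a median change of 0.16 on the log2 scale in sh1-*TUG1* and −0.21 in sh2-*TUG1*, where the medians of all genes were 0.003 and −0.005. Both comparisons used the same 3 control libraries. In bulk RNA, fewer cells that express a gene and less RNA of it per cell cannot be told apart.

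A gene that passed and changed by more than 1.5-fold was called a DEG, with the limits that the study used. So 3 members were DEGs in sh1-*TUG1*, all of them higher (*PROZ*, *C1R* and *C1S*), and 0 were lower, beside 2.44% of all genes higher and 2.52% lower. In sh2-*TUG1*, 9 members were lower and 0 higher, beside 8.97% and 4.35% of all genes. These 9 were *F12*, *F13B*, *KNG1*, *CPB2*, *C8G*, *CFB*, *MBL2*, *SERPING1* and *CFI*. The counts of 0 hold at any p, also by DESeq2, since the lowest log2 fold change of a member in sh1-*TUG1* was −0.53 (*C8G*) and the highest in sh2-*TUG1* was 0.51 (*SERPINA5*), both within 1.5-fold.

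**Figure D1:**
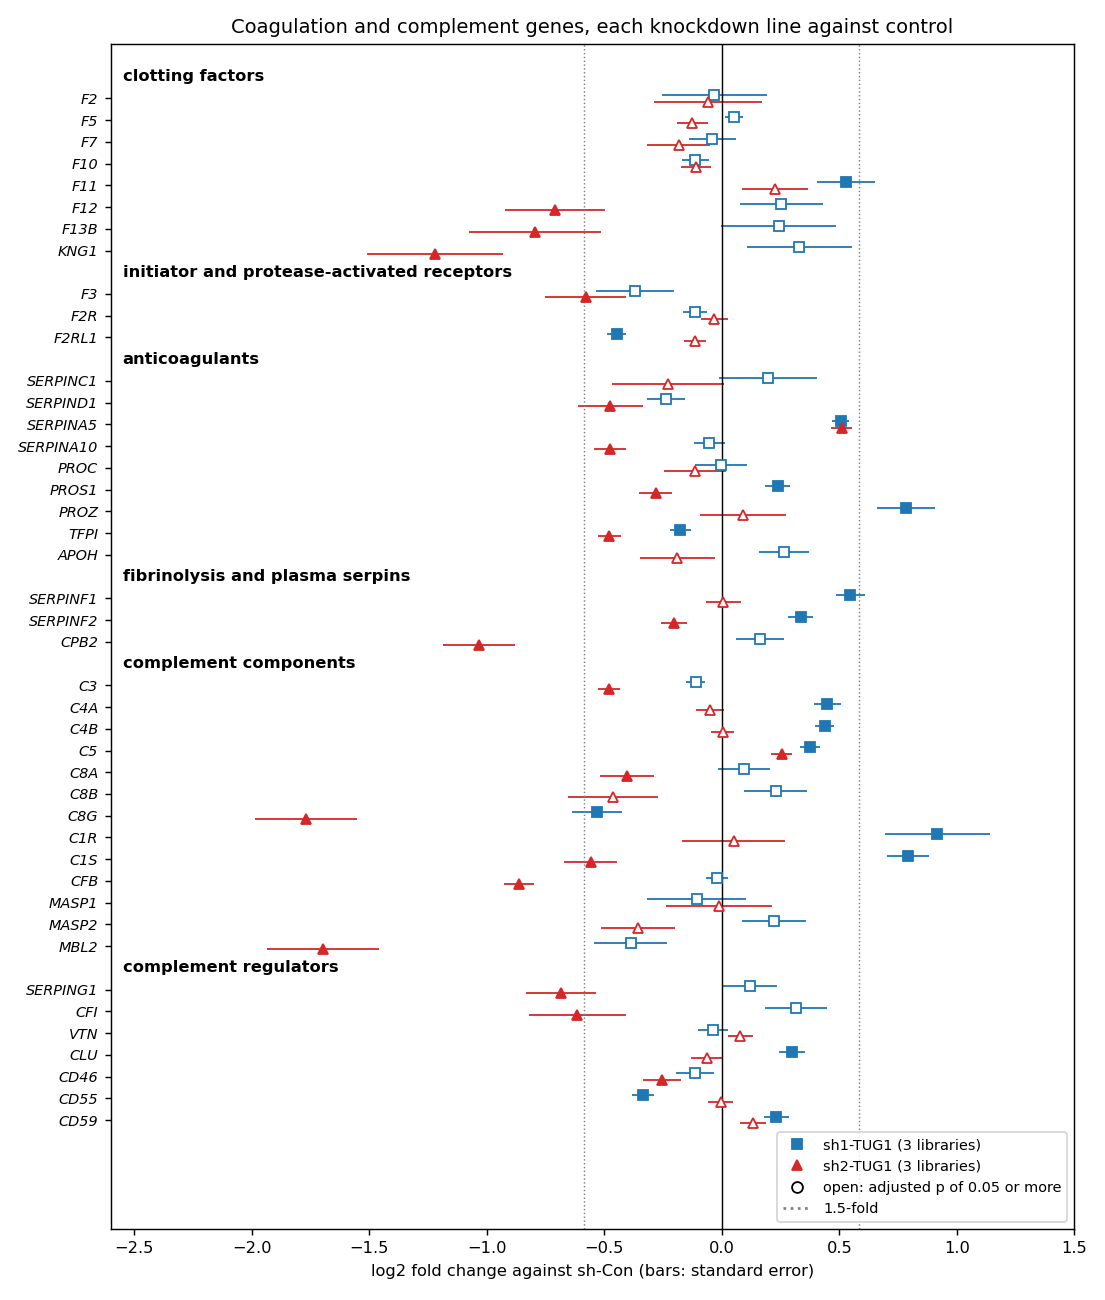
Log2 fold change of each of the 43 members against sh-Con (x axis) by role, in sh1-TUG1 (blue squares) and sh2-TUG1 (red triangles). Bars are standard errors, filled symbols passed at an adjusted p under 0.05, and dotted lines mark a fold change of 1.5. Most red symbols lie to the left of the blue ones, and C8G and MBL2 lie farthest to the left.

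By the test of each line against the shared control libraries, *SERPINA5* and *C5* rose in both lines, and *TFPI* and *C8G* fell in both. *PROS1*, *SERPINF2* and *C1S* rose in sh1-*TUG1* and fell in sh2-*TUG1*. Another 14 genes fell in sh2-*TUG1* and did not pass in sh1-*TUG1*. Of the 10 genes that passed in sh1-*TUG1* and not in sh2-*TUG1*, 8 rose and 2 fell. The remaining 12 genes passed in neither line. Passing in 1 line and not in the other does not by itself show a difference between them. Over all genes, 12.5% rose and 12.3% fell in sh1-*TUG1*, and 21.6% rose and 21.9% fell in sh2-*TUG1*. The joint patterns were counted for the members only, so whether they differ from those of all genes was not tested.

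The lines were compared with each other directly, in a fit of all 9 libraries. Of the 43 members, 27 were lower in the sh2-*TUG1* line, 2 were higher and 14 did not pass, beside 21.7% of all genes lower and 21.0% higher. As DEGs, 13 members were lower and 0 higher, beside 8.04% and 2.56% of all genes. The highest difference was 0.33 on the log2 scale (*F2RL1*), so that 0 were higher at any p. The median difference was −0.42 on the log2 scale, against −0.001 for all genes. In 28 members all 3 sh2-*TUG1* libraries lay below all 3 sh1-*TUG1* libraries, and in 2 members they lay above, beside 27.6% and 27.8% of all genes. When libraries were scaled by their size alone, 30 members were lower and 2 higher. The split over all genes moved with that scaling, from 2702 higher and 2786 lower to 1912 higher and 3532 lower.

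By role, 12 of 13 complement components were lower in the sh2-*TUG1* line than in the sh1-*TUG1* line and 0 were higher. All 3 of the genes for fibrinolysis and plasma serpins were lower, as were 5 of 9 anticoagulants, 4 of 8 clotting factors and 3 of 7 complement regulators. Among the initiator and the protease-activated receptors, 0 of 3 were lower and 1 was higher. These shares were not tested against each other. The vitamin K dependent genes (*F2*, *F7*, *F10*, *PROC*, *PROS1* and *PROZ*), whose proteins need carboxylated glutamates to bind calcium and membranes, held 2 lower members of 6.

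Levels of different genes were compared as CPM per kilobase of merged exons. In sh-Con cells *APOH*, whose protein binds phospholipids in plasma, was highest at 720.8 CPM per kilobase. It was followed by *C3* at 362.6, the antithrombin gene *SERPINC1* at 248.8, the prothrombin gene *F2* at 208.1 and the antiplasmin gene *SERPINF2* at 160.3. *C1R* at 0.336, *F13B* at 0.429 and *KNG1* at 0.476 were the lowest. Of the 13 DEGs between the lines, only *CFB* ranked within the highest 20 of the 43 members, at place 16.

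**Figure D2:**
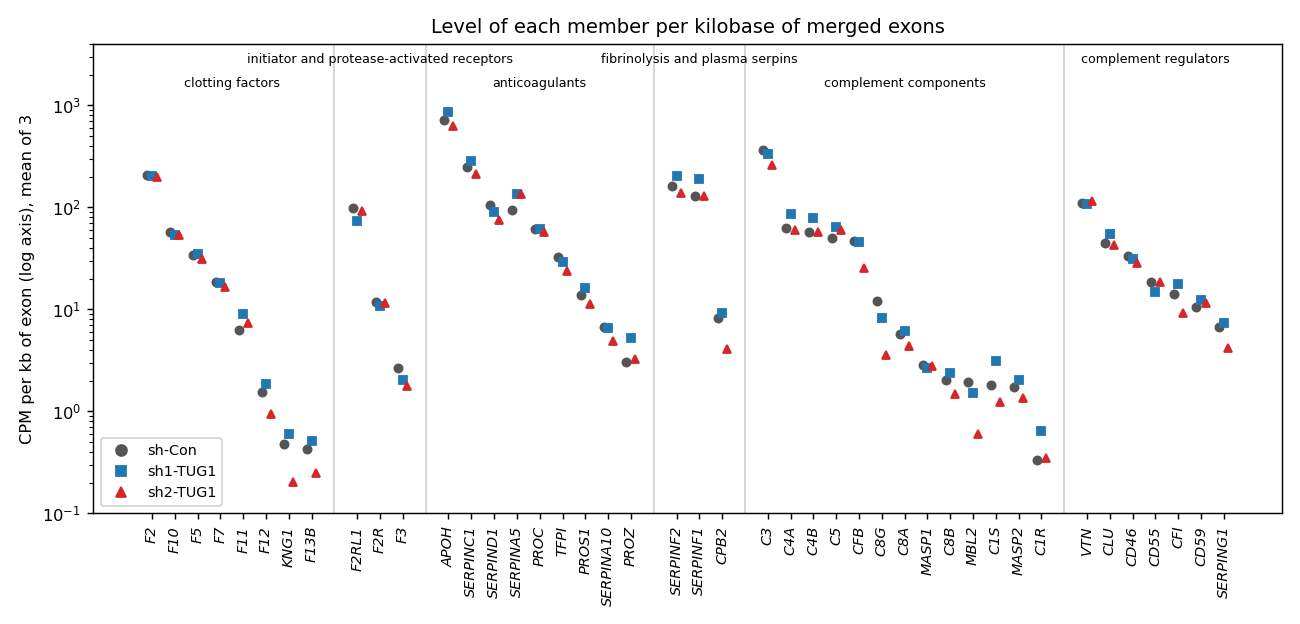
Mean level over 3 libraries, in CPM per kilobase of exon on a log axis, of each member in sh-Con (grey circles), sh1-TUG1 (blue squares) and sh2-TUG1 (red triangles), ordered within each role. APOH was the highest in sh-Con at 720.8 and C1R the lowest at 0.336.

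Among the clotting factors, the prothrombin gene *F2* was the most abundant per kilobase and did not pass in either line. Its 3 libraries read 429.6, 445.4 and 717 CPM in sh-Con, 431.7, 426.6 and 699.9 in sh1-*TUG1*, and 423.7, 415 and 692.3 in sh2-*TUG1*. In every group replicate 3 was high and the others alike, and the groups overlapped. Its log2 fold change was −0.03 ± 0.22 (SE) for sh1-*TUG1* and −0.06 ± 0.23 for sh2-*TUG1* (edgeR's quasi-likelihood test, adjusted p = 0.935 and 0.856).

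*KNG1* and *F12*, which belong to the contact pathway, fell in sh2-*TUG1*. *KNG1* encodes kininogen, the precursor of bradykinin, and read 2.29, 1.66 and 2.73 CPM in sh-Con, 2.78, 2.98 and 2.65 in sh1-*TUG1*, and 0.861, 0.748 and 1.24 in sh2-*TUG1*. All sh2-*TUG1* libraries were below all others, while those of sh1-*TUG1* overlapped with the control. The level in sh2-*TUG1* was 0.429 of the control (log2 fold change −1.22 ± 0.29, adjusted p = 0.00770), and in sh1-*TUG1* the log2 fold change was 0.33 ± 0.23 (adjusted p = 0.324). The difference between the lines was −1.55 ± 0.26 (adjusted p = 0.000537). *F12* encodes the protease that starts the contact pathway. It read 4.67, 3.34 and 4.74 CPM in sh-Con, 4.66, 5.27 and 5.28 in sh1-*TUG1*, and 2.92, 2.72 and 2.18 in sh2-*TUG1*, where every library was below every control library. It fell by 0.71 on the log2 scale in sh2-*TUG1* (SE 0.21, adjusted p = 0.0230) and read 0.25 ± 0.18 in sh1-*TUG1* (adjusted p = 0.335), and the difference between the lines was −0.96 ± 0.19 (adjusted p = 0.00168). The fall of *F12* in sh2-*TUG1* did not pass without sh-Con replicate 1, sh-Con replicate 3, sh2-*TUG1* replicate 2 or sh2-*TUG1* replicate 3 (adjusted p = 0.0601, 0.0813, 0.0516 and 0.0749). Exons of *F12* share 399 bases with *GRK6* on the other strand, and whether reads were counted by strand is not given in the sources used here. *GRK6* rose by 0.32 in sh1-*TUG1* and 0.53 in sh2-*TUG1* (adjusted p = 0.00410 and 0.000283), and its part in the values of *F12* was not tested.

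Of the other clotting factors, *F13B*, a carrier subunit of the enzyme that crosslinks fibrin, was a DEG on a mean of 40.6 counts a library, with a log2 fold change of −0.80 ± 0.28 in sh2-*TUG1* (adjusted p = 0.0438). *F11*, a protease of the intrinsic pathway, rose in sh1-*TUG1* by 0.53 ± 0.12 (adjusted p = 0.0125). *F5*, *F7* and *F10* ranged from −0.18 to 0.05 over both lines and did not pass in either.

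The initiator of clotting, tissue factor (*F3*), fell in sh2-*TUG1* with a log2 fold change of −0.58 ± 0.17 (adjusted p = 0.0220) and read −0.37 ± 0.17 in sh1-*TUG1* (adjusted p = 0.137). *F2RL1*, a protease-activated receptor and the most abundant of its role, was lowest in the sh1-*TUG1* line. It read 287.8, 296.3 and 295.3 CPM in sh-Con, 210.8, 221.7 and 212.7 in sh1-*TUG1*, and 280.2, 275.4 and 257.7 in sh2-*TUG1*. The sh1-*TUG1* libraries were the lowest, and the sh2-*TUG1* libraries lay between them and the control without overlap. Against control, sh1-*TUG1* was at −0.45 ± 0.04 (log2, adjusted p = 7.16e-05) and sh2-*TUG1* at −0.12 ± 0.05 (adjusted p = 0.0767), with a difference of 0.33 ± 0.04 (adjusted p = 7.77e-05). The thrombin receptor gene *F2R* did not pass in any comparison.

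Among the anticoagulants, protein Z (*PROZ*), a vitamin K dependent cofactor for the inhibition of factor Xa, rose in sh1-*TUG1* and did not pass in sh2-*TUG1*. Its libraries read 4.82, 5.20 and 5.09 CPM in sh-Con, 9.26, 8.14 and 8.68 in sh1-*TUG1*, and 4.34, 6.71 and 5.08 in sh2-*TUG1*. The sh1-*TUG1* libraries were above all 6 others. The level was 1.72 of the control in sh1-*TUG1* (log2 fold change 0.78 ± 0.12, adjusted p = 0.00166). The value in sh2-*TUG1* was near the control (0.09 ± 0.18, adjusted p = 0.720), and the lines differed by −0.69 ± 0.16 (adjusted p = 0.00412). *SERPINA10* encodes the inhibitor that protein Z assists. It fell in sh2-*TUG1* by 0.48 on the log2 scale (adjusted p = 0.000474) and did not pass in sh1-*TUG1* (−0.05, adjusted p = 0.615).

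*SERPINA5*, the protein C inhibitor, rose by nearly the same amount in both lines, with log2 fold changes of 0.51 ± 0.04 and 0.51 ± 0.04 (adjusted p = 1.77e-05 and 1.94e-05). The difference between the lines was 0.005 ± 0.036 (adjusted p = 0.919). *TFPI*, which blocks tissue factor and factor VIIa, fell in both lines, by 0.18 in sh1-*TUG1* and by 0.48 in sh2-*TUG1* on the log2 scale (adjusted p = 0.0173 and 6.17e-05). Protein S (*PROS1*), the cofactor of protein C, rose by 0.24 in sh1-*TUG1* (adjusted p = 0.0102) and fell by 0.28 in sh2-*TUG1* (adjusted p = 0.0100). Heparin cofactor II (*SERPIND1*) fell by 0.48 in sh2-*TUG1* (adjusted p = 0.0205). Protein C (*PROC*) did not pass in any comparison.

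*APOH*, the most abundant of all members per kilobase, read 911.5, 849.3 and 1119 CPM in sh-Con, 1100, 1043 and 1317 in sh1-*TUG1*, and 720.6, 713.3 and 1095 in sh2-*TUG1*. As for *F2*, replicate 3 was the highest of each group, and the groups overlapped. Its log2 fold changes of 0.26 ± 0.11 and −0.19 ± 0.16 did not pass (adjusted p = 0.105 and 0.368), and the lines differed by −0.45 ± 0.16 (adjusted p = 0.0345).

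In fibrinolysis, *CPB2*, which encodes a thrombin-activated carboxypeptidase that protects fibrin from plasmin, fell to 0.489 of the control in sh2-*TUG1*. It read 12.9, 14.0 and 15.6 CPM in sh-Con, 14.4, 16.2 and 16.9 in sh1-*TUG1*, and 8.68, 6.14 and 6.01 in sh2-*TUG1*. No sh2-*TUG1* library reached any other library. This was a log2 fold change of −1.03 ± 0.15 (adjusted p = 0.000617), against 0.16 ± 0.10 for sh1-*TUG1* (adjusted p = 0.286), and the lines differed by −1.19 ± 0.14 (adjusted p = 4.67e-05). The antiplasmin gene *SERPINF2*, the most abundant of this role per kilobase, read 406, 370 and 353.5 CPM in sh-Con, 473.7, 494 and 457.5 in sh1-*TUG1*, and 323.3, 328.1 and 330.1 in sh2-*TUG1*. The groups did not overlap, with sh1-*TUG1* highest and sh2-*TUG1* lowest. It rose by 0.34 ± 0.05 in sh1-*TUG1* (adjusted p = 0.00197) and fell by 0.21 in sh2-*TUG1* (SE 0.05, adjusted p = 0.0134). *SERPINF1*, which lies 6691 bases from *SERPINF2* on the same strand of chromosome 17, rose by 0.55 ± 0.06 in sh1-*TUG1* (adjusted p = 0.000237) and read 0.01 ± 0.07 in sh2-*TUG1* (adjusted p = 0.958).

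Among the complement components, the proteases of C1 moved apart between the lines. *C1S*, whose protein cleaves C4 and C2, read 11.8, 11.6 and 11.4 CPM in sh-Con, 19.9, 22.0 and 18.4 in sh1-*TUG1*, and 7.01, 7.99 and 8.63 in sh2-*TUG1*. The groups did not overlap. It rose by 0.79 ± 0.09 on the log2 scale in sh1-*TUG1* (adjusted p = 0.000232) and fell by 0.56 in sh2-*TUG1* (SE 0.11, adjusted p = 0.00301), and the lines differed by −1.35 ± 0.10 (adjusted p = 1.51e-06).

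*C1R*, the protease that activates C1S, lies 9167 bases away on the other strand of chromosome 12 and was the lowest of all members per kilobase. It read 2.35, 1.69 and 1.90 CPM in sh-Con, 3.95, 2.92 and 4.32 in sh1-*TUG1*, and 2.0, 1.92 and 2.23 in sh2-*TUG1*. The sh1-*TUG1* libraries were above the others, and those of sh-Con and sh2-*TUG1* overlapped. On the log2 scale *C1R* rose by 0.92 ± 0.22 in sh1-*TUG1* (adjusted p = 0.0155) and read 0.05 ± 0.22 in sh2-*TUG1* (adjusted p = 0.875), with a difference of −0.86 ± 0.21 (adjusted p = 0.00648). The rise did not pass without sh-Con replicate 2, sh1-*TUG1* replicate 1 or sh1-*TUG1* replicate 3 (adjusted p = 0.0545, 0.0513 and 0.0680). Exons of *C1R* share 672 bases, 11.4% of their length, with *C1RL* on the same strand. *C1RL* read 0.24 in sh1-*TUG1* and −0.40 in sh2-*TUG1* (adjusted p = 0.00866 and 0.000339), and its part in the values of *C1R* was not tested.

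*C4A* and *C4B*, which encode near-identical forms of C4, rose together in sh1-*TUG1*, by 0.45 ± 0.06 and 0.44 ± 0.04 on the log2 scale (adjusted p = 0.000430 and 9.18e-05). In sh2-*TUG1* they read −0.05 ± 0.06 and 0.00 ± 0.05 (adjusted p = 0.505 and 0.966). The copies lie in tandem on chromosome 6, at chr6:31982024-32002681 and chr6:32014795-32035418 (GRCh38, plus strand). In 1 annotated transcript of each, the coding sequences were of equal length at 5232 bases and differed at 13 of them, an identity of 99.75%. The 30 bases that hold the densest differences lie at coding positions 3352 to 3381. They are shown because a read that covers no difference cannot be assigned to 1 copy. Sequence outside these coding regions was not compared. Capitals mark the 5 positions that differ.
C4A: caggaccCctGtccagtgTtaGaCaggagc
C4B: caggaccTctCtccagtgAtaCaTaggagc
How reads shared by the copies were counted is not given in the sources used here, so the split between *C4A* and *C4B* is uncertain.

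*C3*, on which all complement pathways converge, was the most abundant component. It read 3209, 2925 and 2926 CPM in sh-Con, 2819, 2798 and 2769 in sh1-*TUG1*, and 2170, 2129 and 2204 in sh2-*TUG1*. The groups did not overlap, and sh2-*TUG1* was lowest. It fell by 0.48 in sh2-*TUG1* (SE 0.05, adjusted p = 4.69e-05) and read −0.11 ± 0.04 in sh1-*TUG1* (adjusted p = 0.0772), and the lines differed by −0.37 ± 0.04 (adjusted p = 2.82e-05). *C5*, the next protein in the chain, rose in both lines, by 0.38 ± 0.04 and 0.26 ± 0.05 (adjusted p = 0.000199 and 0.00164).

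*CFB*, the protease subunit of the alternative pathway that amplifies C3 cleavage, was the most abundant member to pass 1.5-fold. It read 246.2, 222.7 and 224.7 CPM in sh-Con, 225.7, 230.2 and 227.6 in sh1-*TUG1*, and 117.1, 131.8 and 132.8 in sh2-*TUG1*. The sh-Con and sh1-*TUG1* libraries overlapped, and those of sh2-*TUG1* were far below both. The level in sh2-*TUG1* was 0.550 of the control (log2 fold change −0.86 ± 0.06, adjusted p = 8.63e-06), and in sh1-*TUG1* the log2 fold change was −0.02 ± 0.05 (adjusted p = 0.782). The lines differed by −0.84 ± 0.06 (adjusted p = 6.86e-07). Exons of *CFB* share 2249 bases, 45.0% of their length, with the read-through gene model *AL645922.1* on the same strand. That model read 0.44 ± 0.15 in sh2-*TUG1* (adjusted p = 0.0367) and 0.33 ± 0.19 in sh1-*TUG1* (adjusted p = 0.230). Its part in the values of *CFB* was not tested.

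Both lectin pathway proteases, *MASP1* and *MASP2*, passed in neither line against control. *MASP2* read −0.36 ± 0.16 in sh2-*TUG1* (adjusted p = 0.0957), and the lines differed by −0.58 ± 0.15 (adjusted p = 0.00868). *MBL2*, the mannose-binding lectin they attach to, fell in sh2-*TUG1*. It read 5.77, 7.84 and 7.31 CPM in sh-Con, 5.45, 5.71 and 4.86 in sh1-*TUG1*, and 1.54, 2.04 and 2.85 in sh2-*TUG1*. The groups did not overlap. The level in sh2-*TUG1* was 0.308 of the control (log2 fold change −1.70 ± 0.24, adjusted p = 0.000443), and in sh1-*TUG1* the log2 fold change was −0.39 ± 0.16 (adjusted p = 0.0991). The lines differed by −1.31 ± 0.22 (adjusted p = 0.000554).

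The 3 chains of C8, a part of the membrane pore, did not move alike. *C8G*, the lipocalin chain, fell in both lines and, with all libraries in the fit, had the largest fall of all members. It read 13, 13.4 and 15 CPM in sh-Con, 8.70, 10.5 and 9.50 in sh1-*TUG1*, and 4.89, 4.82 and 2.51 in sh2-*TUG1*. No groups overlapped. *C8G* fell by 0.53 in sh1-*TUG1* (SE 0.11, adjusted p = 0.00636) and by 1.77 in sh2-*TUG1* (SE 0.22, adjusted p = 0.000201) on the log2 scale, with a difference of −1.24 ± 0.20 (adjusted p = 0.000497). The fall in sh1-*TUG1* did not pass in the fit of all 9 libraries (adjusted p = 0.0576). Without replicate 3 of every group, *C8G* read −1.44 in sh2-*TUG1* and *MBL2* read −1.93, the larger fall.

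The *C8A* and *C8B* chains, whose genes lie 10989 bases apart on chromosome 1, had smaller values. *C8A* fell by 0.40 in sh2-*TUG1* (SE 0.12, adjusted p = 0.0189). *C8B* read 5.77, 5.83 and 4.98 CPM in sh-Con, 6.09, 6.54 and 6.79 in sh1-*TUG1*, and 3.69, 3.32 and 5.00 in sh2-*TUG1*. Replicate 3 of sh2-*TUG1* overlapped with the control, and all sh1-*TUG1* libraries were above both groups. It passed in neither line (0.23 ± 0.14 and −0.46 ± 0.19, adjusted p = 0.253 and 0.0764), while the lines differed by −0.69 ± 0.17 (adjusted p = 0.00625).

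**Figure D3:**
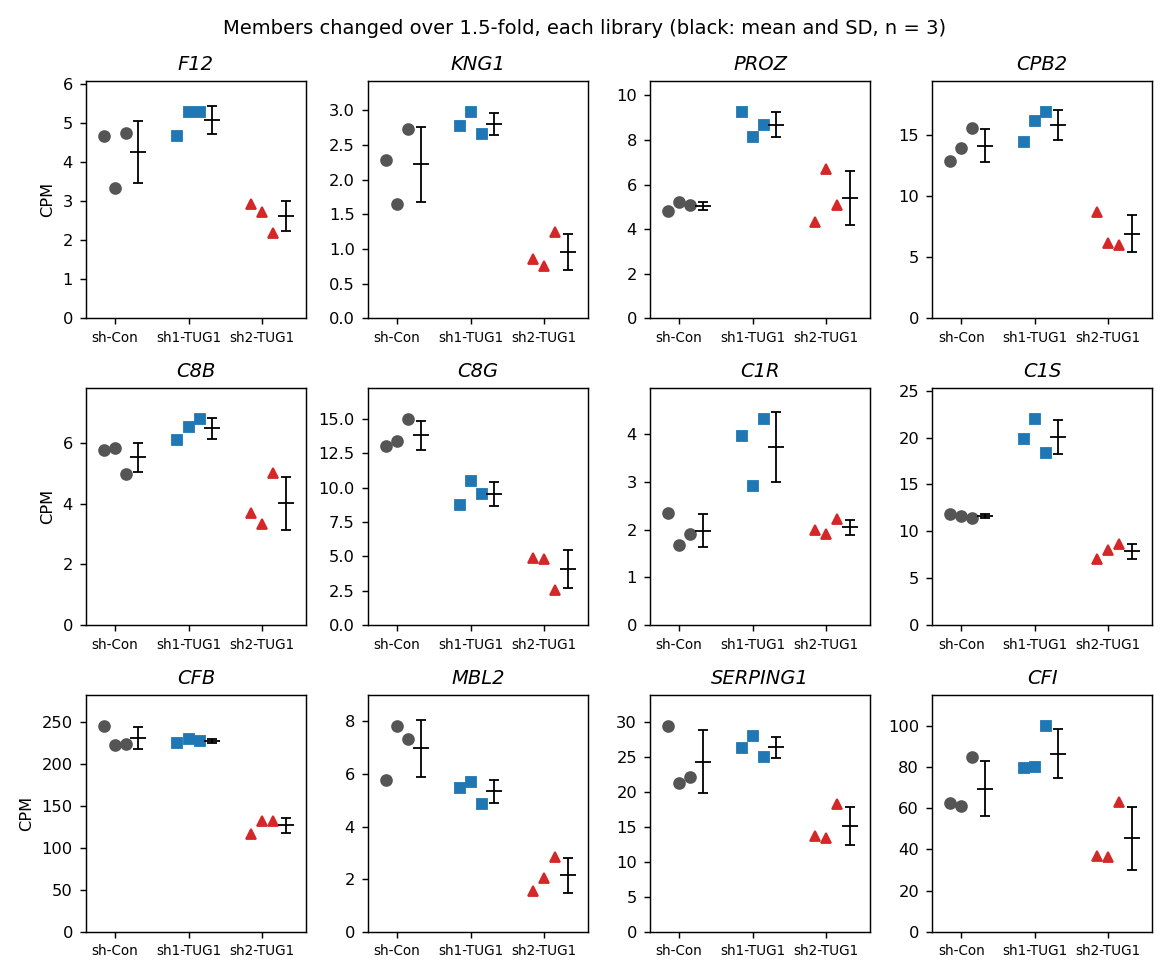
CPM in each library of the 12 members with a fold change over 1.5 in at least 1 comparison and a mean of at least 50 counts, in sh-Con (grey circles), sh1-TUG1 (blue squares) and sh2-TUG1 (red triangles), with the mean and SD of 3 libraries in black. For F12, KNG1, CPB2, C8G, C1S, CFB, MBL2 and SERPING1 all sh2-TUG1 libraries lie below all others. For PROZ, C8B, C1R and C1S all sh1-TUG1 libraries lie above all others.

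Among the complement regulators, *SERPING1* and *CFI* fell in sh2-*TUG1*. *SERPING1* encodes the C1 inhibitor, which blocks C1R, C1S and the contact proteases. It read 29.4, 21.3 and 22.1 CPM in sh-Con, 26.2, 27.9 and 24.9 in sh1-*TUG1*, and 13.7, 13.3 and 18.2 in sh2-*TUG1*. The sh2-*TUG1* libraries were the lowest, and the other groups overlapped. Against control, sh2-*TUG1* was at −0.69 ± 0.15 (log2, adjusted p = 0.00517), beside 0.12 ± 0.11 in sh1-*TUG1* (adjusted p = 0.493), and the lines differed by −0.80 ± 0.14 (adjusted p = 0.000666).

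*CFI*, whose protein cleaves C3b and C4b, read 62.4, 61.0 and 84.7 CPM in sh-Con, 79.4, 79.9 and 100.1 in sh1-*TUG1*, and 36.8, 36.1 and 63.0 in sh2-*TUG1*. Replicate 3 was again the highest of each group, and that of sh2-*TUG1* overlapped with the control. Against control, sh2-*TUG1* was at −0.62 ± 0.21 (log2, adjusted p = 0.0367), beside 0.32 ± 0.13 in sh1-*TUG1* (adjusted p = 0.111), with a difference of −0.93 ± 0.20 (adjusted p = 0.00280). The fall in sh2-*TUG1* did not pass by DESeq2 (adjusted p = 0.110), nor without sh-Con replicate 3, sh2-*TUG1* replicate 1 or sh2-*TUG1* replicate 2 (adjusted p = 0.123, 0.135 and 0.131).

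Vitronectin (*VTN*), which binds the forming pore and was the most abundant regulator per kilobase, did not pass in any comparison. It read 265.3, 254.4 and 277.5 CPM in sh-Con, 240.1, 253 and 284.2 in sh1-*TUG1*, and 270.3, 277 and 296.5 in sh2-*TUG1*, and the groups overlapped. Its log2 fold changes were −0.04 ± 0.06 and 0.08 ± 0.05 (adjusted p = 0.721 and 0.259). Clusterin (*CLU*), which also binds the pore, rose by 0.30 ± 0.06 in sh1-*TUG1* (adjusted p = 0.00440).

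The regulators on the cell surface had changes under 1.5-fold. *CD55*, which speeds the decay of C3 convertases, fell by 0.34 in sh1-*TUG1* (adjusted p = 0.000737) and read −0.01 in sh2-*TUG1* (adjusted p = 0.948). *CD59*, which blocks the pore, rose by 0.23 in sh1-*TUG1* (adjusted p = 0.0119). *CD46*, a cofactor for cleavage by factor I, fell by 0.26 in sh2-*TUG1* (adjusted p = 0.0280).

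Leaving out 1 library of the groups compared changed the call of some members. In sh1-*TUG1* the rises of *F11* (adjusted p = 0.0538, without sh1-*TUG1* replicate 3) and *PROS1* (0.0552, without sh1-*TUG1* replicate 2) no longer passed, and the fall of *TFPI* no longer passed without any 1 of the sh1-*TUG1* libraries (adjusted p = 0.0529 to 0.0725). In sh2-*TUG1*, beside *F12* and *CFI*, calls were lost for *F13B* (adjusted p = 0.0659 to 0.150, in 5 of 6 fits), *CD46* (0.0594 to 0.109, in 5) and *F3* (0.0567 to 0.0758, in 4). They were also lost for *C8A* (adjusted p = 0.0594 to 0.0833, in 3), *SERPIND1* (0.0591 to 0.0857, in 3) and *SERPINF2* (0.0551, without sh2-*TUG1* replicate 1). Between the lines they were lost for *APOH* (adjusted p = 0.0572 to 0.134), *C5* (0.0521 to 0.133) and *F5* (0.0727 to 0.112), each in 4 fits. All other calls of members passed in every one of these fits, except *C1R* above. DESeq2 did not make the calls of *SERPIND1*, *F13B* and *CFI* in sh2-*TUG1* or that of *APOH* between the lines.

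The libraries numbered 3 stood apart for a few members in every group. Among 12423 genes, 29 (0.233%) were above both other libraries of their group by over 0.3 on the log2 scale in library 3 of all 3 groups. Of the 42 members among these genes, 4 did so: *F2*, *SERPINC1*, *MASP1* and *CFI*. For replicates 1 and 2 the same count was 1 and 3 genes, with 0 members. Library 3 of *F2* was 1.64, 1.63 and 1.65 times the mean of the others in sh-Con, sh1-*TUG1* and sh2-*TUG1*. For *SERPINC1* the ratios were 1.62, 1.53 and 1.73. *PROC* went the other way, at 0.794, 0.772 and 0.710.

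**Figure D4:**
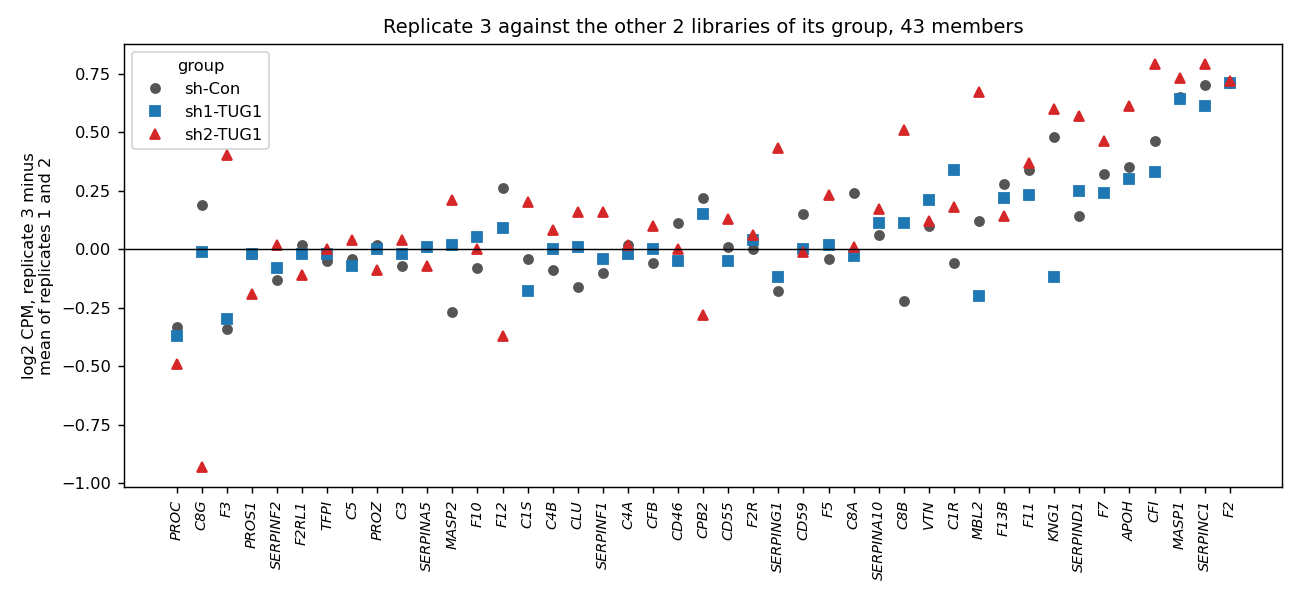
Log2 CPM of replicate 3 minus the mean of replicates 1 and 2 for each of the 43 members (x axis), in sh-Con (grey circles), sh1-TUG1 (blue squares) and sh2-TUG1 (red triangles). Points of F2, SERPINC1, MASP1 and CFI lie above 0 in every group, and those of PROC below 0.

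Leaving out replicate 3 of every group, an alternative chosen after seeing the data, left 13 members higher and 3 lower in sh1-*TUG1*, 2 higher and 19 lower in sh2-*TUG1*, and 28 lower and 2 higher between the lines. Over all genes that alternative left 630 higher and 683 lower in sh1-*TUG1*, 2000 higher and 2055 lower in sh2-*TUG1*, and 1860 lower and 1706 higher between the lines. With it *SERPINC1*, which did not pass with all libraries (0.20 ± 0.21 and −0.23 ± 0.24, adjusted p = 0.537 and 0.465), read 0.23 ± 0.06 in sh1-*TUG1* and −0.27 ± 0.06 in sh2-*TUG1* (adjusted p = 0.0442 and 0.00804). *APOH* read 0.28 ± 0.06 and −0.30 ± 0.06 (adjusted p = 0.0242 and 0.00500), and *CFI* read 0.37 ± 0.07 and −0.76 ± 0.08 (adjusted p = 0.0187 and 0.000215). *F2* and *MASP1* still passed in neither line. Some calls were lost in the same fits, among them the rises of *C1R* and *PROS1* and the falls of *C8G* and *TFPI* in sh1-*TUG1*, and the falls of *F12* and *PROS1* in sh2-*TUG1*. Between the lines the calls of *PROZ*, *C1R* and *F13B* were lost (adjusted p = 0.0545, 0.0695 and 0.0803 by edgeR), and 4 other members passed anew.

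Promoters of the members were read from RefSeq (GRCh38.p14), from 250 bases before to 50 after the start, for the 32 members with an entry. They were searched on both strands for the letters CAAAGTCCA, a site known for HNF4A, a nuclear receptor of hepatocytes. The letters were found in 2 of the 32 members (6.2%), *F10* and *PROZ*, in 0.56% of 9476 genes that were tested here and have an entry, and in 0.38% of 35116 promoters. Both stretches of 30 bases are shown because these are the members with a match. Each runs 5′ to 3′ along the gene's strand, with the reverse complement of the letters in capitals.
F10 (chr13:113122787-113122816, plus strand): agctggggcgTGGACTTTGctccagcagcc
PROZ (chr13:113158604-113158633, plus strand): tcccccagccTGGACTTTGgctgtgtttgt
*F10* and *PROZ* lie 9125 bases apart on chromosome 13. The letters GTTAAT were searched in the same way, and those stretches are not shown. They were found in 10 of the 32 members (31.2%) and in 5.76% of the 9476 genes. A match of letters is a description of the promoter, and binding was not measured.

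Of 57 other genes of these pathways, listed by name, 31 were tested. In sh1-*TUG1* 13 of them rose and 6 fell (41.9% and 19.4%), beside 12.5% and 12.3% of all genes. In sh2-*TUG1* 7 rose and 10 fell (22.6% and 32.3%), beside 21.6% and 21.9%. The sh1-*TUG1* line had 6 DEGs with a rise and 1 with a fall on this list, against 4 and 7 for the sh2-*TUG1* line. Over all genes, 2.44% were DEGs with a rise and 2.52% with a fall in sh1-*TUG1*, and 4.35% and 8.97% in sh2-*TUG1*. The 7 falls in sh2-*TUG1* included *C5AR2*, *CFD* and *HGFAC*, named after their values were seen. The C5a receptor gene *C5AR2* was at −2.49, complement factor D (*CFD*) at −1.62 and *HGFAC*, a protease that activates hepatocyte growth factor, at −1.41 on the log2 scale (adjusted p = 0.00136, 0.000512 and 1.05e-05). *C5AR2* had a mean of only 30.7 counts a library. The other C5a receptor gene, *C5AR1*, with a mean of 1221 counts, read 0.10 in sh2-*TUG1* (adjusted p = 0.245). In sh1-*TUG1*, *C5AR1* was at −1.175 (adjusted p = 7.32e-06). *HGFAC* also fell in sh1-*TUG1*, at −0.576 (adjusted p = 0.00197 by edgeR), which is within 1.5-fold. In that line *C5AR2* read −0.735 and *CFD* −0.422, and neither passed (adjusted p = 0.0616 and 0.178 by edgeR). The DEGs of both lines in 1 direction given here were *GGCX*, *A2M*, *VWF* and *COLEC11*, which rose. In sh1-*TUG1*, *GGCX* and *COLEC11* were just over the limit, at 1.502-fold and 1.511-fold. *GGCX*, the enzyme that carboxylates the vitamin K dependent factors, rose in both lines by 0.59 ± 0.05 and 0.76 ± 0.05 (adjusted p = 3.99e-05 and 5.28e-06). *A2M*, a broad protease inhibitor of plasma, rose by 0.92 ± 0.13 and 1.33 ± 0.13 (adjusted p = 0.000773 and 4.34e-05). *VWF*, which carries factor VIII and is an endothelial marker, rose by 1.40 ± 0.25 and 1.65 ± 0.26 from a mean of 1.49 CPM (adjusted p = 0.00311 and 0.000777). *COLEC11*, a collectin of the lectin pathway, rose by 0.60 ± 0.17 in both lines (adjusted p = 0.0280 and 0.0157).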

How the data were processed

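Read counts per gene of 9 HepG2 libraries, in 2 tables that share the control libraries, were used as the authors deposited them, with no normalization. The submitters' processing notes name HISAT2, StringTie and GRCh38. The counting tool and its use of strand are not given in the sources used here. The tables also hold FPKM values that the authors deposited, with columns for the authors' test (a log2 ratio of the groups and its false discovery rate, a p-value after correction). None of these was used.

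Groups and replicate numbers came from the sample labels. Both knockdown lines were compared with sh-Con, each within its own table (13017 and 12953 genes, 6 libraries), and the lines against each other on the 12854 shared genes of all 9 libraries. Tests used R 4.3.3 and edgeR 4.0.16 (TMM normalization, filterByExpr, which removed 0 genes, and the quasi-likelihood test, with the Benjamini–Hochberg method over all genes). CPM values are TMM-normalized over 9 libraries, and log2 CPM used a prior count of 2. Statistics given as ± are standard errors derived from the test. Each is the absolute log2 fold change divided by the square root of the quasi-likelihood F statistic. Libraries of 1 group differed by more than read sampling, with a chi-squared per degree of freedom of 6.41 to 25.8 over 10772 genes. The scripts were tested on simulated data with known changes.

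Members and lists were chosen with earlier results of these data known. Values in every library are given for members that were DEGs in at least 1 comparison with a mean of at least 50 counts, and for the member with the highest level per kilobase in each role. Of the other pathway genes, DEGs of both lines in 1 direction are named. *C5AR2*, *CFD*, *HGFAC* and *C5AR1* were named after their values were seen. Some genes of these lists are not reported here. Gene positions and exon lengths are from GENCODE 29 (GRCh38). As alternatives, libraries were scaled by RLE or by size alone, genes were not filtered or kept at 1 CPM or more in 3 libraries, and DESeq2 1.42.0, a block for the replicate number or glmTreat against 1.5-fold replaced the test. Other fits took all 9 libraries or the 6 knockdown libraries together, or left out each library in turn. Leaving out replicate 3 of every group was added after seeing the data.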

Additional observations from a re-analysis of the deposited data

Results flagged for a closer look

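By edgeR's quasi-likelihood test of the difference itself, in the fit of all 9 libraries, the 2 lines differed in 29 members. Of these, 27 were lower and 2 higher in sh2-*TUG1*, beside 21.7% and 21.0% of all genes. The 14 given here were DEGs between the lines with a mean of at least 50 counts, or passed against the control in opposite directions. The difference of sh2-*TUG1* minus sh1-*TUG1* on the log2 scale was −1.55 for *KNG1*, −1.35 for *C1S*, −1.31 for *MBL2*, −1.24 for *C8G*, −1.19 for *CPB2*, −0.96 for *F12* and −0.93 for *CFI*. It was −0.86 for *C1R*, −0.84 for *CFB*, −0.80 for *SERPING1*, −0.69 for *C8B* and −0.69 for *PROZ*. *SERPINF2* at −0.54 and *PROS1* at −0.52 rose in one line and fell in the other. All were lower in sh2-*TUG1*, and each hairpin was measured in 1 line.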

How the results depend on the processing

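Scaling by RLE size factors changed no member's call. Skipping the filter or keeping genes at 1 CPM or more in 3 libraries repeated the main fit, since the filters removed 0 genes. These settings could not change a call. Of 756 values of named members under the alternatives, those repeats included, 698 kept direction and side of the threshold. Another 19 passed anew, 23 no longer passed and 16 changed sign, and none of these 16 passed in either fit. A test against a fold change of 1.5 (glmTreat), which asks for more than a DEG does, left 0 members higher in sh1-*TUG1*, 4 lower in sh2-*TUG1* (*CPB2*, *C8G*, *CFB* and *MBL2*) and 6 lower between the lines. Over all genes it left 45 higher and 69 lower of 13017 in sh1-*TUG1*. The counts were 201 and 399 of 12953 in sh2-*TUG1*, and 67 and 263 of 12854 between the lines. Leaving out 1 library at a time gave 11 to 15 members higher, 3 to 7 lower, 2 to 4 DEGs higher and 0 to 1 lower in sh1-*TUG1*. In sh2-*TUG1* it gave 2 to 3 higher, 12 to 21 lower, 0 DEGs higher and 6 to 11 lower. Between the lines it gave 2 to 3 higher, 24 to 31 lower, 0 DEGs higher and 12 to 17 lower. Over all genes these fits gave 1017 to 1895 higher and 1019 to 1884 lower in sh1-*TUG1*. They gave 2200 to 2916 and 2287 to 2792 in sh2-*TUG1*, and 2151 to 2312 and 2243 to 2440 between the lines. The 7 members lower in sh1-*TUG1* came without sh-Con replicate 1, and the 12 lower in sh2-*TUG1* without sh2-*TUG1* replicate 2. Over these fits the log2 fold change of *F2* ran from −0.309 to 0.242 in sh1-*TUG1*, from −0.343 to 0.221 in sh2-*TUG1* and from −0.312 to 0.25 between the lines, and the extremes came without replicate 3 of one of the groups. In sh1-*TUG1* that of *CFB* ran from −0.054 to 0.02 and was 0.005 with library size alone, and that of *VTN* ran from −0.11 to 0.015. In sh2-*TUG1*, *C1R* ran from −0.05 to 0.188 and was −0.041 without replicate 3 of every group, and *PROZ* ran from −0.097 to 0.223. The cause was not tested.

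Over 10772 genes libraries of the same number did not deviate together (correlations of −0.19 to 0.05), and the number was not taken to pair them, although library 3 was high in all 3 groups for 29 genes, *F2*, *SERPINC1*, *MASP1* and *CFI* among them. With the replicate number as a block, members higher and lower became 16 and 5 in sh1-*TUG1*, 2 and 20 for sh2-*TUG1*, and 2 and 29 between the lines. Over all genes, in the same order, the counts became 1422 and 1347, 2431 and 2490, and 2396 and 2514. The block gained *APOH* (adjusted p = 0.00189 and 0.0339) and *SERPINC1* in both lines and *CFI* (0.00516) and *SERPIND1* in sh1-*TUG1*, and lost *F13B* in sh2-*TUG1*. Between the lines it gained *F11*, *SERPIND1* and *SERPINC1* and lost *C5*. DESeq2 gave 13 and 5, 2 and 16, and 2 and 27 members. Its counts over all genes were 1729 and 1735, 2889 and 2890, and 2799 and 2906. With technical replicates the errors do not cover the spread between cultures, and *F13B*, *KNG1* and *C1R* had means of only 40.6, 70.8 and 91.6 counts a library.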
